A study of Mus musculus with 4 samples.

Results

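Transcripts of 8 genes of cholesterol synthesis and uptake were followed as mouse naive CD4+ T cells were moved into culture for induced regulatory T (iTreg) cells. The 8 genes are Hmgcs1, Idi1, Fdps, Fdft1, Sqle, Cyp51, Insig1 and Stard4, out of 32562 genes named on the array. They were chosen by name with earlier results of these data known, so the counts below describe them and test nothing. The names are carried by 13 probes: 5 genes have 2 probes and Idi1, Fdps and Insig1 have 1. At 3 h, the probe with the highest mean signal was more than 2-fold higher than in naive T for 6 of the 8 genes in WT cells, among them Idi1 (5.23-fold), Cyp51 (4.57-fold), Sqle (4.38-fold), Insig1 (3.54-fold) and Hmgcs1 (2.84-fold). In cells that lack the nuclear receptors Nr4a1, Nr4a2 and Nr4a3 (Nr4a-TKO), the same measure was more than 2-fold higher for 7 genes. Stard4 was 3.34-fold lower there by its brighter probe, which had an uneven spot in naive T. Its dimmer probe, near background, was at least 1.92-fold higher with the processing used here. That log2 difference of 0.94 was as little as 0.21 under other settings. Of all genes measured, 8.5% were more than 2-fold higher in WT and 7.74% in Nr4a-TKO, and 8.05% were more than 2-fold lower in Nr4a-TKO.

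Cholesterol is built from acetyl-CoA through mevalonate, farnesyl diphosphate, squalene and lanosterol. When sterols in the endoplasmic reticulum run low, Scap carries the SREBP transcription factors to the Golgi, where they are cut and released to the nucleus to switch on the genes of synthesis and uptake. Insig proteins hold Scap back when sterols are plentiful. T cells that leave rest and start to grow are known to raise sterol synthesis, since they need new membrane.

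RNA was measured on 4 single-colour arrays: both genotypes, WT and Nr4a-TKO, as naive T and as iTreg at 3 h, with 1 array for each. Donor animals were C57BL/6J mice aged 6 to 8 weeks, and the Nr4a-TKO genotype combines floxed Nr4a1, floxed Nr4a2 and Nr4a3-/-. The Cre driver is not given in the sources used here. All cells, WT included, came from bone marrow chimeras sampled 6 weeks after transplantation, the Nr4a-TKO cells from hosts that had also received WT marrow and the WT cells from hosts given WT marrow alone. The cells were sorted from spleen and lymph nodes as CD4+, CD25low, CD44low, CD62L-high and Foxp3-, with Foxp3 read through a hCD2-hCD52 reporter in the Nr4a-TKO line. Both iTreg samples had 3 h with plate-bound anti-CD3 (2 µg/ml) and anti-CD28 (0.5 µg/ml), IL-2 (10 ng/ml), TGF-β1 at one of 2 doses (0.2 and 0.5 ng/ml, with no statement of which was used here), antibodies to IFN-γ and IL-4 (1 µg/ml each) and 10% fetal bovine serum, itself a source of lipoprotein cholesterol. With 1 array per group there is no spread between replicates, so no difference below has a test or a p-value.

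Signals are given as normalised intensity on the log2 scale, where a difference of 1 is 2-fold, the threshold used here. Repeated spots of other probes, all well above background, set the precision within an array. The SD of a difference between 2 arrays from spot error alone was 0.17, and it leaves out the variation between mice and cultures. Each of the 13 probes has 1 spot. The scanner software judged 64.9% to 67.6% of all probes to be well above background, and no spot was saturated. All 12 markers of naive CD4+ T cells, among them Cd3e and Cd4, stood well above background on each array, and the summed linear signal of 10 early activation genes was 5610 and 6880 in naive T against 36700 and 39100 at 3 h. Markers of other cells were also above background: the sum of 6 B cell genes lay between 2500 and 3360 (all 6 above background on each array, 2500 and 2880 at 3 h), of 6 myeloid genes between 34800 and 40000 (5 or 6 above background), of 2 CD8 T cell genes between 74.4 and 142, of 4 NK cell genes between 51.6 and 77.3 and of 4 erythroid genes between 149 and 194. Cd22 made most of the B cell sum, at 10.94 to 11.25 on the log2 scale. Itgam alone made most of the myeloid sum, at 14.98 to 15.14 on the log2 scale, and Csf1r lay at 11.16 to 11.76. Of the other myeloid markers, Cst3 lay at 7.38 to 7.91, Fcer1g at 4.71 to 5.17 and Lyz2 at 3.79 to 4.27. Cd14 stood at 6.66 in WT naive T and at 3.77 to 4.58 on the other arrays. The NK cell markers Ncr1 and Klrc1 and the erythroid marker Hbb-b1 were not well above background on any array. The part of these cells in the results below was not tested.

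The labels were checked on the deleted genes first. Nr4a1 stood at 7.05 (naive T) and 11.34 (3 h) on the WT arrays, and at 8.39 and 11.83 on those of Nr4a-TKO. The Nr4a2 probe with the highest mean stood at 6.24 and 8.84 in WT, and at 6.44 and 10.20 in Nr4a-TKO. Both were higher on the arrays labelled Nr4a-TKO, which goes against the label, although a probe outside the deleted part of a gene would check nothing and their place relative to the floxed part is not given in the sources used here. Of 3 Nr4a3 probes, 2 were lower on the 3 h array labelled Nr4a-TKO, by -1.87 and -1.48, and the other differed by 0.18. In naive T the same 3 probes differed by 0.08, -0.39 and 0.02, and from naive T to 3 h in Nr4a-TKO by 3.12, 0.06 and 2.75. Every direction between genotypes below therefore rests on the labels.

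The 250 bases before the start of transcription are shown for the 4 genes that the RefSeq promoter table (GRCm38.p6) holds, since these genes passed 2-fold upward in both genotypes and are textbook targets of SREBP; Fdps, Fdft1, Sqle and Stard4 had no entry. Capitals mark matches on either strand to CCAAT, the site of the SREBP partner NF-Y, and to TCACNCCAC, a form of the sterol regulatory element. The windows are chr13:119690101-119690350 on the plus strand for Hmgcs1, chr13:8885356-8885605 on the plus strand for Idi1, chr5:4104698-4104947 on the minus strand for Cyp51 and chr5:28071162-28071411 on the plus strand for Insig1.
Hmgcs1: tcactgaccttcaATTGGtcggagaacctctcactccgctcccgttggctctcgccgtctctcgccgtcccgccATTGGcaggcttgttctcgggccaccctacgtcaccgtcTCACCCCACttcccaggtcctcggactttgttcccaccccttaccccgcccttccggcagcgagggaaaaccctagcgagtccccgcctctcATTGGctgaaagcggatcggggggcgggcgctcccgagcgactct
Idi1: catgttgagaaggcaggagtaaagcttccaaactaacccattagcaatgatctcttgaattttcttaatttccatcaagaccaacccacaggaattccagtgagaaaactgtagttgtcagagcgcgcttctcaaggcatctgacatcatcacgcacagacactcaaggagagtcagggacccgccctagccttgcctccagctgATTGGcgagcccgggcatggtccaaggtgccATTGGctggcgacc
Cyp51: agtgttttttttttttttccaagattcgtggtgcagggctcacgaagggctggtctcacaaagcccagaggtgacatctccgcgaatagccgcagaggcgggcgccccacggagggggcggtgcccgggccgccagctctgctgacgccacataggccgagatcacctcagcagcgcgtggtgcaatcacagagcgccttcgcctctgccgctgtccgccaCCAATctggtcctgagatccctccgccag
Insig1: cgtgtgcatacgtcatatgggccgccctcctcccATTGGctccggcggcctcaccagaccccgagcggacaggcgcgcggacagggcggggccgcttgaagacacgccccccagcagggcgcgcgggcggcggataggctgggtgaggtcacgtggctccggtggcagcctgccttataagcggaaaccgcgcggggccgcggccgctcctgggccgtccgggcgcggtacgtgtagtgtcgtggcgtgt

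CCAAT was found in the 4 windows, with 3 matches for Hmgcs1 beginning 237, 176 and 45 bases before the start, 2 for Idi1 (45 and 14 bases), 1 for Cyp51 (29 bases) and 1 for Insig1 (216 bases). It occurred in 33.8% of 32851 mouse promoter windows of the same length. TCACNCCAC was found for Hmgcs1, 137 bases before the start, and in 1.05% of all windows. The GC box GGGCGG, bound by Sp1, was also found in the 4 windows and in 32.7% of all. Searched on both strands, the Nr4a response element AAAGGTCA (1.34% of all windows) and the Ets letters AGGAAG (29.5%) were not found in these 4 windows. CCAAT and TCACNCCAC did not overlap in them, and a match of letters is no evidence of binding.

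Hmgcs1 encodes HMG-CoA synthase, which makes HMG-CoA early in the pathway. Its brighter probe (chr13_random:114793-114852, mm9) stood at 8.28 in naive T and 9.79 at 3 h in WT, and at 8.65 and 10.59 in Nr4a-TKO. Both 3 h arrays were above both naive arrays, and Nr4a-TKO was above WT at each stage. The difference from naive T to 3 h was 1.51 in WT (2.84-fold) and 1.94 in Nr4a-TKO (3.84-fold). A dimmer probe (chr13_random:121437-121496) was not well above background in WT naive T and stood at 5.05 in WT at 3 h and at 4.05 and 5.12 in Nr4a-TKO, so that its signal in WT was at least 3.05-fold higher at 3 h, and in Nr4a-TKO 2.11-fold higher. Within bulk RNA, more cells with a transcript and more transcript per cell cannot be told apart, here and below.

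Idi1 encodes isopentenyl diphosphate isomerase, which turns one 5-carbon building block into its partner. Its single probe (chr13:8891524-8891583, mm9) stood at 10.11 (naive T) and 12.50 (3 h) on the WT arrays, and at 10.22 and 12.74 on those of Nr4a-TKO. The stages were far apart and the genotypes close at each. Idi1 was 5.23-fold higher at 3 h in WT and 5.75-fold higher in Nr4a-TKO. By size of this difference it ranked 211th from the highest of 23224 genes in WT and 132nd of 23713 in Nr4a-TKO, ahead of the other 7 genes.

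Fdps encodes farnesyl diphosphate synthase, at the branch that also feeds protein prenylation and ubiquinone. Its probe (chr3:88897549-88897608, mm9) stood at 6.58 in WT naive T and 7.51 at 3 h, and at 6.42 and 7.68 in Nr4a-TKO. The order of the genotypes turned over between the stages, by amounts within the spot error. Fdps was 1.92-fold higher at 3 h in WT, short of the threshold, and 2.40-fold higher in Nr4a-TKO.

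Fdft1 encodes squalene synthase, the first step committed to sterols. Its brighter probe (chr14:63765750-63769990, mm9, a span wider than the probe) stood at 8.96 in naive T and 9.15 at 3 h in WT, and at 8.72 and 9.82 in Nr4a-TKO. The Nr4a-TKO array at 3 h stood above the other three, which lay close together. Fdft1 was 1.14-fold higher at 3 h in WT and 2.14-fold higher in Nr4a-TKO. The other probe (chr14:63765457-63765516) gave 6.27 and 6.83 in WT, and 6.39 and 7.39 in Nr4a-TKO, differences of 0.56 and 1.00, the latter just under 2-fold. Fdft1 had the smallest difference of the 8 genes in WT.

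Sqle encodes squalene epoxidase, a second control point of the pathway. The brighter probe (chr15:59162688-59162747, mm9) stood at 7.82 (naive T) and 9.95 (3 h) on the WT arrays, and at 8.03 and 10.26 on those of Nr4a-TKO. It was 4.38-fold higher at 3 h in WT and 4.71-fold higher in Nr4a-TKO. The dimmer probe (chr15:59157550-59157609) had the same order of stages at 5.34 and 6.23 in WT and 5.29 and 6.66 in Nr4a-TKO, but smaller differences of 0.89 in WT, under the threshold, and 1.38 in Nr4a-TKO.

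Cyp51 encodes lanosterol 14-alpha-demethylase, the first enzyme to act on lanosterol. Its brighter probe (chr5:4082122-4082181, mm9) stood at 7.19 in naive T and 9.38 at 3 h in WT, and at 7.29 and 9.53 in Nr4a-TKO. A probe that spans chr5:4092033-4092439 stood at 6.18 and 8.74 in WT, and at 6.67 and 9.03 in Nr4a-TKO. By both probes the stages were apart. The genotypes were close by the brighter probe, while the other differed by 0.49 between them in naive T. The 3 h arrays were 4.57-fold and 5.87-fold higher in WT by these probes, and 4.73-fold and 5.13-fold higher in Nr4a-TKO.

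Insig1 encodes the endoplasmic reticulum protein that holds Scap when sterols are plentiful, and it is itself a target of SREBP. Its probe (chr5:28404246-28404305, mm9) stood at 5.03 (naive T) and 6.85 (3 h) on the WT arrays, and at 4.96 and 7.12 on those of Nr4a-TKO. It was 3.54-fold higher at 3 h in WT and 4.49-fold higher in Nr4a-TKO. With an offset of 50 its log2 differences were 1.00 in WT and 1.22 in Nr4a-TKO, in place of 1.82 and 2.17. The genotypes differed by -0.07 in naive T and 0.27 at 3 h.

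**Figure D1:**
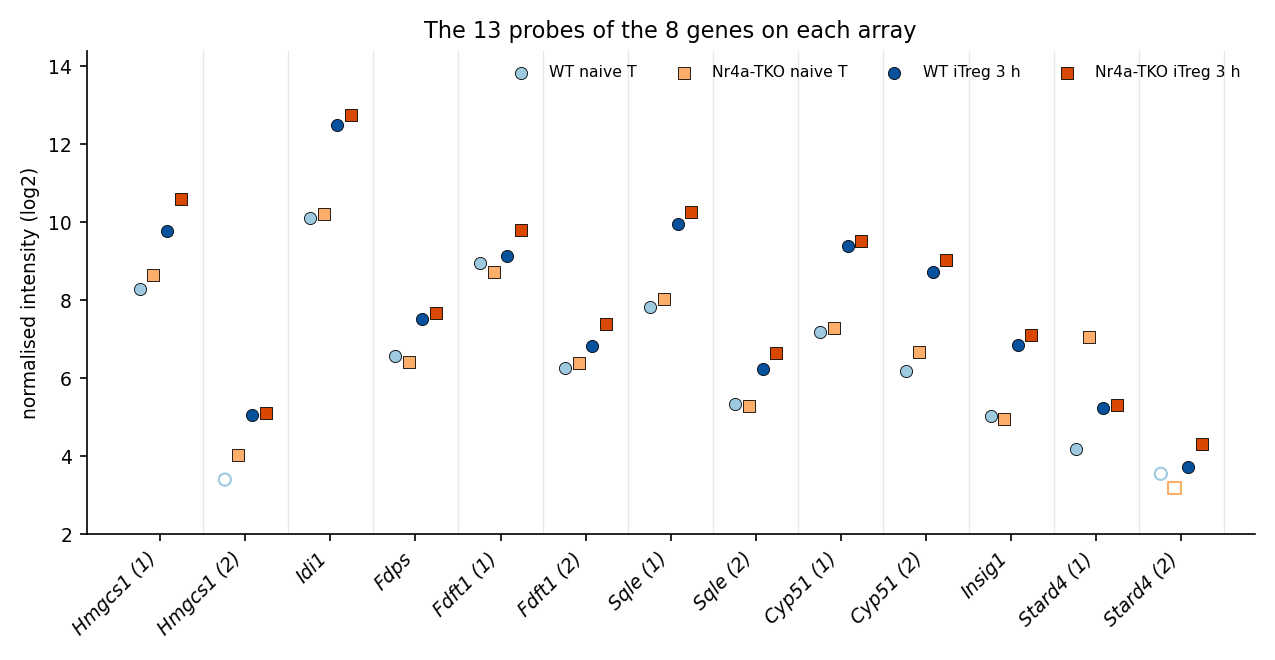
Normalised intensity (log2) of each of the 13 probes on the 4 arrays, with 1 point per array. Circles are WT and squares Nr4a-TKO, pale for naive T and dark for iTreg at 3 h, open where the probe was not well above background, and (1) and (2) mark the brighter and the dimmer probe of a gene. For each probe except Stard4 (1) both dark points lie above both pale ones, narrowly for Fdft1 (1) and Stard4 (2). Stard4 (1) is highest in Nr4a-TKO naive T at 7.05.

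Read as genes, each by its brighter probe, 6 of the 8 were more than 2-fold higher at 3 h in WT, beside 8.5% of 23224 genes measured, and 0 were more than 2-fold lower, beside 8.48%. In Nr4a-TKO, 7 of 8 were more than 2-fold higher, beside 7.74% of 23713 genes, and 1 was more than 2-fold lower, beside 8.05%. Hmgcs1, Idi1, Sqle, Cyp51 and Insig1 were the 5 genes past the threshold upward in both genotypes. Stard4 was past it upward in WT, and Fdps and Fdft1 in Nr4a-TKO. The median difference over the 8 genes was 1.67 in WT and 2.05 in Nr4a-TKO, where the medians of all genes were -0.05 and -0.02. Counting the 6 enzymes alone gave 4 of 6 in WT and 6 of 6 in Nr4a-TKO. After an offset of 50 was added to the signals, Fdps in Nr4a-TKO had a difference of 0.91, under the threshold. The 2 changes share no array, so the 5 genes were past the threshold in each of 2 pairs of arrays. These pairs were normalised together and share 1 slide, and the genes were chosen with earlier results known. The second pair is therefore no independent check of the first.

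**Figure D2:**
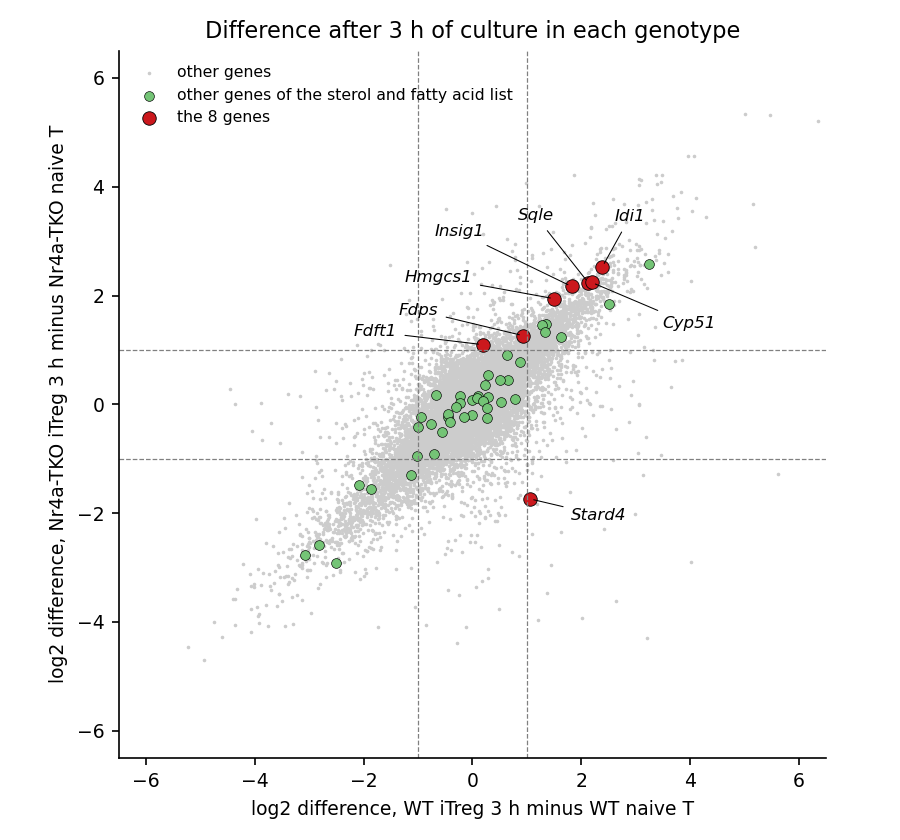
Log2 difference between iTreg at 3 h and naive T in WT (horizontal) and Nr4a-TKO (vertical) for each gene measured in both. Grey points are all other genes, green points the other genes of the sterol and fatty acid list, red points the 8 genes, and dashed lines mark 2-fold. Hmgcs1, Idi1, Sqle, Cyp51 and Insig1 lie beyond 2-fold on both axes, and Stard4 lies at 1.05 and -1.74.

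Stard4, which carries cholesterol between membranes inside the cell and is another target of SREBP, stood apart from the rest. Its brighter probe (chr18:33365863-33367852, mm9, a span wider than the probe) stood at 4.20 in naive T and 5.25 at 3 h in WT, and at 7.05 and 5.31 in Nr4a-TKO. The array of Nr4a-TKO naive T was high and the other three low. By this probe Stard4 was 2.07-fold higher at 3 h in WT, 3.34-fold lower at 3 h in Nr4a-TKO and 7.22-fold higher in Nr4a-TKO than in WT naive T. The last 2 values rest on the same array, that of Nr4a-TKO naive T.

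The dimmer Stard4 probe (chr18:33361181-33361240) did not show that high value. It was not well above background on either naive array and read 3.72 in WT and 4.31 in Nr4a-TKO at 3 h. In Nr4a-TKO this was at least 1.92-fold higher than in naive T with the processing used here. The log2 difference of 0.94 in Nr4a-TKO was as little as 0.21 under other settings. In WT the probe was 1.12-fold higher than a naive signal of 3.55 that was not well above background. That difference of 0.16 was smaller even than the spot error of probes well above background. The pixels of the high spot were uneven: on the array of Nr4a-TKO naive T their SD was 47.5% of their mean of 140 intensity units, a larger share than in 99.3% of the 7433 spots within 1.5-fold of its brightness, whose median was 20.6%. On the other arrays the same spot had pixel SDs of 24.7%, 26.1% and 23.1% of its mean. The software set no outlier flag on it, and the part of the uneven spot in the value was not tested. The difference of 1.05 in WT was 0.62 without background correction and 0.37 with an offset of 50, both under the threshold. In the same 2 settings the difference in Nr4a-TKO was -1.37 and -1.02 in place of -1.74, and that between the genotypes in naive T was 2.03 and 1.42 in place of 2.85. Without Stard4, 5 of 7 genes were more than 2-fold higher at 3 h in WT and 7 of 7 in Nr4a-TKO, and 0 were more than 2-fold lower in either.

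The steps of the pathway did not differ alike. Of 18 enzymes examined, 17 had a value, since no probe carried the name Acat2. In WT, 6 of the 17 were more than 2-fold higher at 3 h and 1 was more than 2-fold lower, and in Nr4a-TKO 8 were higher and 0 lower, where the shares over all genes were 8.5% and 8.48% in WT and 7.74% and 8.05% in Nr4a-TKO. Apart from the 6 enzymes described above, 2 of 11 were past 2-fold upward in both genotypes, namely Msmo1 and Hsd17b7. The medians over these 11 were 0.28 in WT and 0.13 in Nr4a-TKO.

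Msmo1, a sterol C4-methyl oxidase, differed by 1.35 in WT. Its difference in Nr4a-TKO was 1.48, and a second bright probe gave 1.41 and 1.49. Hsd17b7, a ketosteroid reductase of the same stretch, differed by 2.52 and 1.85, while its other bright probe gave 0.58 and 1.59. The 3 steps just before Idi1 had no such difference: Mvk differed by -0.55 in WT and -0.51 in Nr4a-TKO, Pmvk by 0.28 and 0.13, and Mvd by -0.66 and 0.17. Dhcr7, which makes cholesterol from its direct precursor, differed by -1.01 and -0.94. It was the 1 enzyme past the threshold downward in WT.

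**Figure D3:**
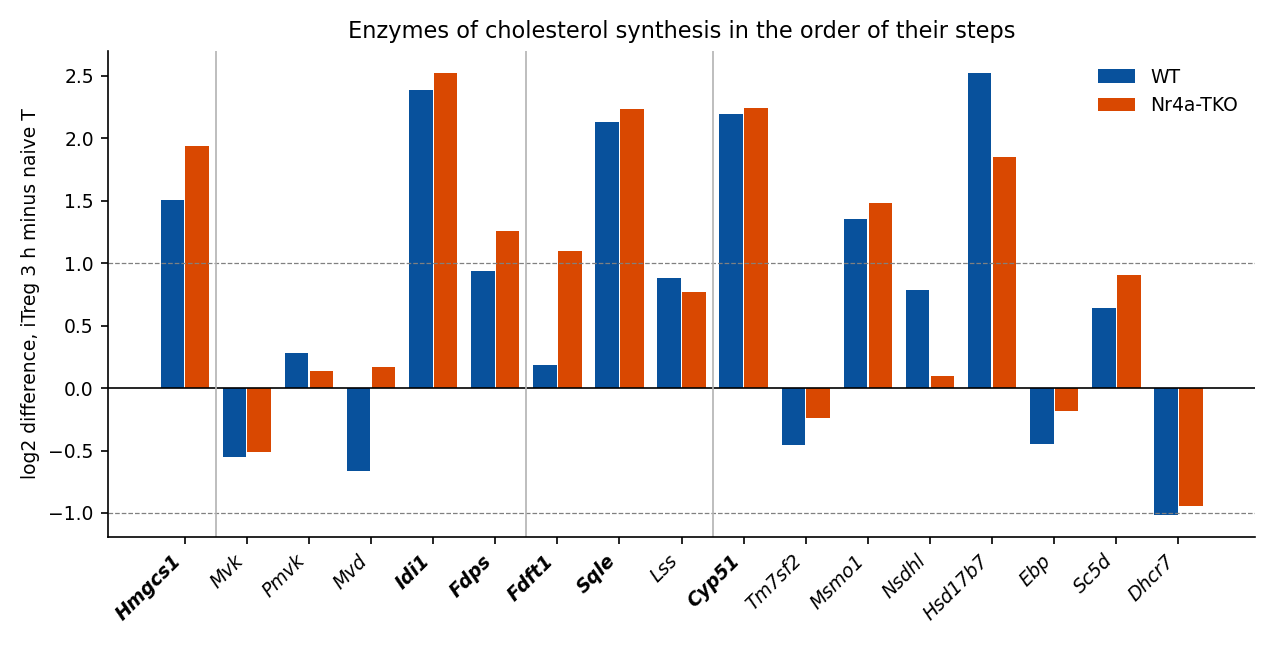
Log2 difference between iTreg at 3 h and naive T for the 17 enzymes of cholesterol synthesis with a value, in the order of the pathway, with WT in blue and Nr4a-TKO in orange. Bold names are genes of the set of 8, grey lines part the sections of the pathway, dashed lines mark 2-fold, and each bar is 1 pair of arrays. Bars past 2-fold upward in both genotypes are those of Hmgcs1, Idi1, Sqle, Cyp51, Msmo1 and Hsd17b7.

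Of the 7 genes of SREBP control, each by its brightest probe, Insig1 was the one past 2-fold, upward in both genotypes. The shares over all genes more than 2-fold higher were 8.5% in WT and 7.74% in Nr4a-TKO. With 7 genes, such a count says little about the group. Srebf2, the SREBP form that favours cholesterol genes, stood at 8.27 in naive T and 8.27 at 3 h in WT, and at 8.15 and 8.22 in Nr4a-TKO, and its other probe differed by 0.75 in WT and 0.49 in Nr4a-TKO. Srebf1 differed by 0.10 and 0.16, and Scap by 0.66 and 0.44. Insig2, the close relative of Insig1, differed by 0.09 and 0.11. For Mbtps2, a protease that cuts SREBP, the probes differed: the brightest gave -0.22 in WT and 0.14 in Nr4a-TKO, while a pair of others, well above background on the 4 arrays, gave 1.30 and 2.06 in WT, past 2-fold, and 0.71 and 0.43 in Nr4a-TKO.

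The genes of uptake and transport went both ways. At 3 h in WT, 2 of 6 passed 2-fold upward, Stard4 and Tmem97, and 2 downward. In Nr4a-TKO 1 passed upward and 3 downward, Stard4 among them. The shares over all genes were 8.5% and 8.48% in WT and 7.74% and 8.05% in Nr4a-TKO. Without Stard4, 1 of 5 passed upward and 2 of 5 downward in each genotype. Tmem97, a sterol-responsive membrane protein that limits Npc1, differed by 3.24 in WT and by 2.59 in Nr4a-TKO. Its 2 dimmer probes gave differences between 2.31 and 3.07, the latter from a WT naive signal not well above background. Lower at 3 h were Npc2 (-2.08 in WT and -1.49 in Nr4a-TKO), which hands cholesterol to Npc1 in the lysosome, and Mylip (-1.86 and -1.55), a ubiquitin ligase. The lysosomal transporter Npc1 itself differed by -0.77 and -0.35.

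**Figure D4:**
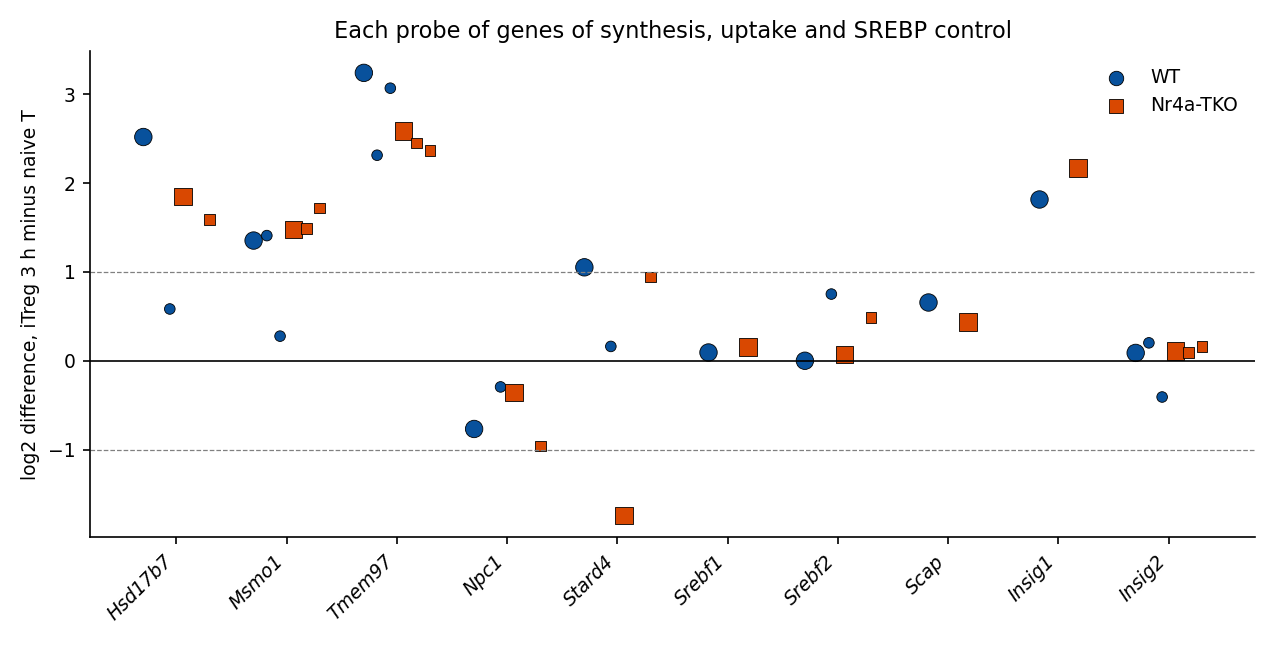
Log2 difference between iTreg at 3 h and naive T for every probe measured in both genotypes of 10 genes of synthesis, uptake and SREBP control. Blue circles are WT, orange squares Nr4a-TKO, the large symbol is the probe with the highest mean signal, and dashed lines mark 2-fold; small symbols of dim probes can be lower bounds. The large and small Tmem97 symbols all lie above 2-fold, from 2.31 to 3.24, and the large Stard4 symbols lie on either side of 0.

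Genes of fatty acids under SREBP also went both ways, while the efflux genes Abcg1 and Abca1 were lower at 3 h in both genotypes. Abcg1, a cholesterol exporter, differed by -3.07 in WT and -2.77 in Nr4a-TKO, while Abca1, another exporter, fell by 1.00 in WT and differed by -0.42 in Nr4a-TKO. Nr1h2, the oxysterol receptor LXR-beta that drives both, differed by -0.01 and -0.19. Acaca (1.28 and 1.46) and Fasn (1.63 and 1.23), which build fatty acids, were higher at 3 h, while Acss2 (-2.81 and -2.59), which makes acetyl-CoA from acetate, and Scd2 (-2.50 and -2.92), a desaturase, were lower. The 3 other Acss2 probes lay between -1.87 and 0.66 in WT and between -2.28 and 0.19 in Nr4a-TKO, with the dimmest above 0 in both. Of the other Acaca probes 1 went the other way in WT (-0.83). Elovl6, an elongase, was well above background in Nr4a-TKO naive T alone. Its difference of -1.09 in Nr4a-TKO uses a 3 h signal that was not. On other branches from farnesyl diphosphate, Nus1, of dolichol synthesis, differed by 1.33 and 1.32, and Ggps1, which makes the geranylgeranyl group, by -1.13 and -1.29, although its 5 dimmer probes lay between -0.66 and 0.87.

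The wider list held 45 genes beside the 8, of which 43 were measured in each change. At 3 h, 6 passed 2-fold upward and 8 downward in WT, and 6 and 7 in Nr4a-TKO. As shares of 43 genes these were 14% and 18.6% in WT, beside 8.5% and 8.48% of all genes, and 14% and 16.3% in Nr4a-TKO, beside 7.74% and 8.05%. The same 6 genes were past the threshold upward in both genotypes, and 6 were past it downward in both. The median difference of the wider list was 0.00 in WT and 0.01 in Nr4a-TKO, against 1.67 and 2.05 for the 8 genes.

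Between the arrays labelled WT and Nr4a-TKO the differences were smaller. In naive T, 1 of the 8 genes was more than 2-fold higher in Nr4a-TKO, beside 1.93% of 23112 genes, and this was Stard4. None (0 of 8) was more than 2-fold lower, beside 1.67%. The other 7 genes lay between -0.24 for Fdft1 and 0.37 for Hmgcs1, with 4 above 0 and 3 below. Dimmer probes of these genes gave 0.49 for Cyp51, beyond 2 SDs of the spot error, and values of the other sign for Fdft1 (0.12) and Sqle (-0.05). For Hmgcs1 the dimmer probe gave at least 0.60, and as little as 0.09 under other settings. Its WT signal was not well above background, where the spot error was not measured. The median over the 8 genes was 0.10 and that over all genes -0.01.

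At 3 h, 0 of the 8 genes were more than 2-fold higher in Nr4a-TKO than in WT, beside 1.74% of 23498 genes, and 0 were more than 2-fold lower, beside 1.93%. The 8 differences were all above 0, from 0.06 for Stard4 to 0.80 for Hmgcs1 (1.74-fold), with a median of 0.26, while 11737 of all 23498 genes were above 0 and their median was 0.00. All 8 come from the same pair of arrays, on which the 6 B cell genes also differed upward, from 0.06 for Ms4a1 to 0.77 for Cd79b and 1.14 for Cd79a. The naive CD4+ T cell markers differed downward, from -0.03 for Cd3g to -0.69 for Thy1, except Lck (0.15) and Cd5 (0.52). Cd8a and Cd8b1 differed by -0.59 and -0.32. The part of other cells in these differences was not tested. Fdft1 differed by 0.67 (1.59-fold) by its brighter and 0.56 by its dimmer probe, whereas for Hmgcs1 the dimmer probe gave 0.07. Idi1 (0.25), Insig1 (0.27), Fdps (0.16), both probes of Cyp51 (0.14 and 0.29) and the brighter probe of Sqle (0.31) lay within 2 SDs of the spot error, and the dimmer probe of Sqle (0.43) did not. In the wider list, Scd1, a desaturase, was higher in Nr4a-TKO by 1.12 in naive T and 1.20 at 3 h, with 1.51 and 0.68 by its other probe. Abca1 was higher by 1.11 at 3 h, with 0.45 by its other probe. Some dimmer probes, well above background on the 4 arrays, also passed 2-fold between the genotypes. They gave -1.82 for Mbtps2 at 3 h, -1.25 for Hsd17b7 in naive T and 1.07 for Ggps1 at 3 h.

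The change in Nr4a-TKO was larger than that in WT by 0.91 for Fdft1, with 0.44 by its other probe, and by 0.43 for Hmgcs1, where the other probe gave -0.53. For Sqle the changes differed by 0.10 and by 0.48 with its other probe, and for Cyp51 by 0.05 and -0.19. For Idi1, Fdps and Insig1, with 1 probe each, they differed by 0.14, 0.32 and 0.34. For Stard4 the brighter probe gave -2.79. Such a difference of differences uses the 4 arrays with nothing left to estimate its error, so it was not tested.

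**Figure D5:**
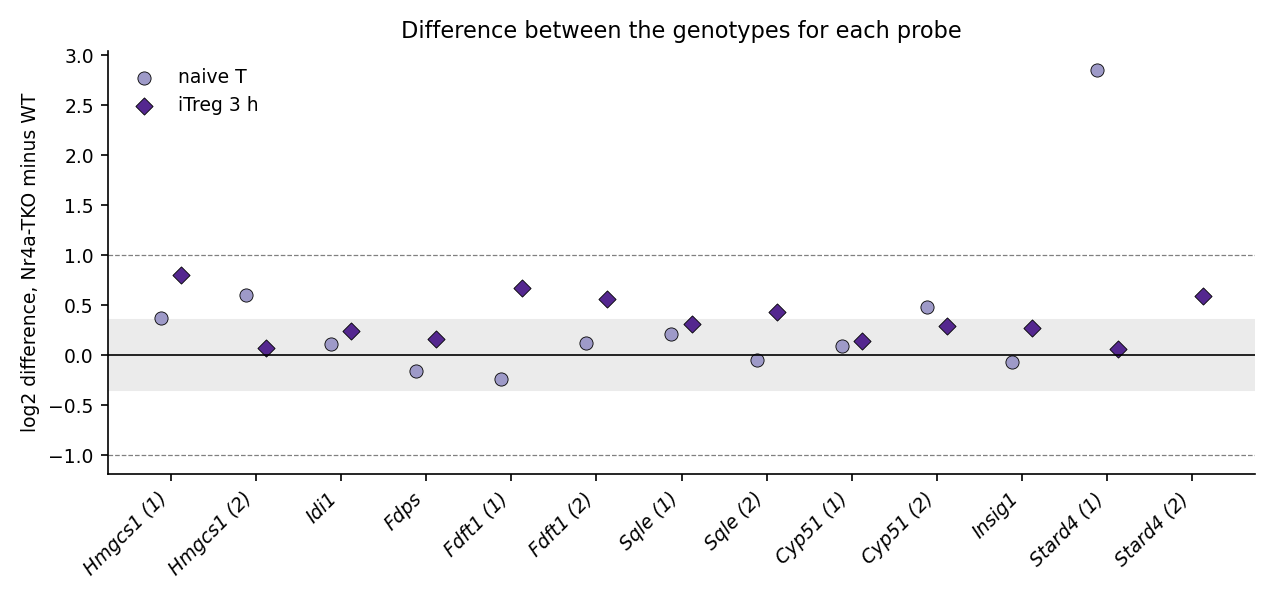
Log2 difference between Nr4a-TKO and WT for each probe of the 8 genes, in naive T (circles) and in iTreg at 3 h (diamonds). The grey band covers 2 SDs of spot error on either side of 0 and the dashed lines mark 2-fold; Stard4 (2) has no naive T point because neither naive array had it well above background. Stard4 (1) in naive T lies at 2.85, and the diamonds of the 8 genes lie between 0.06 and 0.80.

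To find genes with a like pattern, the 4 values of each gene were centred on their mean and compared with the mean profile of the 8 genes. The nearest of 15638 genes, by Euclidean distance on the log2 scale over the 4 arrays, were Bbs12 (0.07), Mapk4 (0.08), Pet117 (0.10), Aebp2 (0.11) and Pole3 (0.12). The 8 genes themselves lay farther from their own mean, between 0.40 for Hmgcs1 and 2.54 for Stard4. Bbs12 stood at 5.37 (naive T) and 6.99 (3 h) on the WT arrays, and at 5.86 and 7.28 on those of Nr4a-TKO. With Stard4 left out of the mean profile, a choice made after seeing the data, the nearest were Sil1 (0.07), Nfkb2 (0.08), Ifrd1 (0.09), Rab8b (0.13) and Ipo7 (0.14), and 0 of the 5 genes were shared. The mean difference between the genotypes in naive T was 0.40 over the 8 genes and 0.04 without Stard4, so the nearest genes rest on that 1 probe. With 4 points, such closeness is a description of these arrays.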

How the data were processed

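The authors deposited one scanner file per array from Agilent Feature Extraction 11.5.1.1, holding spot intensity (mean), local background intensity, a processed intensity and flags, and probe positions on mm9. A table of log2 values was deposited too. The methods name RMA in GeneSpring, but the table held the log2 processed intensity with the 75th percentile of every array set to 0 (column medians -2.16 to -2.33). The 4 arrays share 1 slide and 1 scan. Here the mean intensity was corrected with limma 3.58.1 in R 4.3.3 (normexp with the local background, offset 0), quantile normalised, log2 transformed and averaged over spots without outlier flags (115 to 160 spots per array left out). Some signals of dim probes (not well above background) lay below the lowest value the array had well above background (3.07 to 3.45). These were raised to it, which makes a difference a bound, and higher ones were kept as read. A comparison needed 1 of 2 arrays above background. A gene took its probe with the highest mean. RefSeq (GRCm38.p6) was used for names and promoter windows only, never with mm9 positions, and which part of a transcript a probe matches was not determined. Steps after limma used Python 3.11.15. The counting of genes past 2-fold was tested on simulated data. The 8 genes, the wider lists and the naming rule (every wider gene past 2-fold in any comparison, plus Srebf1, Srebf2, Scap and Nr1h2, and the 5 nearest profiles) were chosen with earlier results of these data known; Mvk, Pmvk, Mvd, Insig2, Npc1 and Mbtps2 were named after their values were seen. Some genes of the wider list are not reported here and were left out of its counts. Alternatives were other background corrections, scaling by the 75th percentile, the deposited table, other filters on dim probes, the mean over probes, and thresholds of 1.5-fold and 3-fold.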

Additional observations from a re-analysis of the deposited data

Results flagged for a closer look

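One gene differed in opposite directions in the 2 genotypes: by its brighter probe, Stard4 was higher at 3 h in WT, by 1.05 on the log2 scale, and lower in Nr4a-TKO, by -1.74. This difference was not tested, since each group has 1 array. The dimmer Stard4 probe was higher at 3 h in Nr4a-TKO, by at least 0.94 here and by as little as 0.21 under other settings. In WT it differed by 0.16, less than the spot error. Its pixel SD in Nr4a-TKO naive T was 22.3% of the mean, against 47.5% for the brighter probe.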

How the results depend on the processing

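No paired analysis was possible because each group holds 1 array. Under other corrections, scalings and filters no probe of the 8 genes turned direction. By the other probe of a gene, Stard4 turned at 3 h in Nr4a-TKO (0.94), and Fdft1 (0.12) and Sqle (-0.05) between the genotypes in naive T. Of the values of single probes 63 moved by more than the spot error, 23 of them with an offset of 50, where the dimmer probes of Sqle (0.76 in Nr4a-TKO) and Hmgcs1 (0.45 and 0.35) lay under 2-fold at 3 h. The median over the 8 genes at 3 h was 1.84 in WT and 2.27 in Nr4a-TKO with scaling by the 75th percentile, 1.86 and 2.29 in the deposited table, 1.43 and 1.78 without background correction and 1.19 and 1.52 with an offset of 50. The mean over the probes of a gene gave 1.66 in Nr4a-TKO, 0 of the 8 genes lower there and a wider list median of 0.20 in WT. Without Stard4, or by its other probe (both chosen after seeing the data), 0 genes were lower at 3 h in Nr4a-TKO. Without Stard4, 0 were higher in Nr4a-TKO naive T, where its other probe was too dim to compare the genotypes. At 1.5-fold, 2 of the 8 genes were higher in Nr4a-TKO at 3 h, and of the wider list 10 were higher at 3 h in WT, 4 higher in Nr4a-TKO naive T and 1 lower in Nr4a-TKO at 3 h. At 3-fold, 3 of the wider list were higher and 5 lower in WT, and 2 higher and 3 lower in Nr4a-TKO, at 3 h. The shares over all genes at 1.5-fold and 3-fold are not given here. The counts at these thresholds therefore cannot be set against all genes. With an offset of 50, 5 of the wider list were lower in WT. No wider list gene (0) was higher in Nr4a-TKO than in WT in naive T or at 3 h with the offset of 50, without background correction or at 3-fold, and 0 were at 3 h with the mean over probes. The causes were not tested. Of the other 139 counts and 54 medians under alternatives, each stayed within 1.5 times or within the spot error.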
